A study of Mus musculus with 6 samples.

Results

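The genes described here encode the nuclear part of the last steps of mitochondrial respiration: complex III, cytochrome c, complex IV and ATP synthase. They were taken from the count table by symbol, as every row beginning with Uqcr, with Cox followed by 4 to 8 and a letter, or with Atp5, together with Cyc1 and Cycs, and names with "-ps" were to be left out, of which there were 0. The rule found 45 of 22192 rows, of which 9 belong to complex III (Cyc1 included), 1 is cytochrome c, 18 belong to complex IV and 17 to ATP synthase. Measured values played no part in the rule.

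Polyadenylated RNA was sequenced from RAW 264.7, a macrophage-like line that arose from a tumour of a BALB/c mouse. In the treated group (3 libraries) the medium held ASPS-A1 at 200 µg/mL for 24 h. ASPS-A1 is the acidic fraction of a leaf polysaccharide of Acanthopanax senticosus, a ginseng-like shrub, purified over ion-exchange and gel columns. The other group (3 libraries) is labelled control, with no agent named, and both groups are the same line with no genetic change. The labels do not say whether the libraries came from separate cultures, so p-values measure the spread between these libraries, which may be technical. A change in the share of cells that express a gene and a change in its RNA per cell cannot be told apart in such bulk samples. Levels are scaled to library size, so neither cell number nor total RNA per cell can be read from them.

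Complex III passes electrons from ubiquinol to cytochrome c, a small haem protein of the intermembrane space, and complex IV passes them from cytochrome c to oxygen. Both pump protons across the inner membrane, and ATP synthase lets the protons flow back and makes ATP. Each of the 3 complexes joins nuclear subunits to a few made inside the mitochondrion (CYTB in complex III, COX1, COX2 and COX3 in complex IV, ATP6 and ATP8 in ATP synthase), so its assembly draws on transcripts of both genomes. Macrophages are known to shift between respiration and glycolysis as they are activated.

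Libraries held 19989318 to 26137127 counts, and 11686 genes had enough counts to be tested. All 10 macrophage markers listed were measured, with summed levels of 3214 to 3340 CPM (counts scaled to library size) in the ASPS-A1 libraries and 2269 to 2295 in control. The defining markers of other cells were at or near 0: Cd3e and Cd3g of T cells, Epcam and Krt8 of epithelium and S100a9 and Ly6g of neutrophils had no count in any library. Summed CPM over 6 fibroblast markers were 0.477 to 0.815 with ASPS-A1 and 0.390 to 0.580 in control. Over 7 striated muscle markers they were 6.88 to 8.44 and 6.65 to 7.16, over 5 dendritic cell markers 3.24 to 4.45 and 4.23 to 4.57, and over 5 B cell markers 31.8 to 38.3 and 30.3 to 32.6. The endothelial sum was 12.7 to 13.8 against 7.004 to 8.397, and the T cell, epithelial and neutrophil sums stayed under 1 CPM in each library. The part of these markers in the results below was not tested.

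The promoters of several members are shown first, because genes of these complexes are known targets of the transcription factors NRF1, GABP and YY1, and because most members moved in the same direction. Windows of 300 bases, from 250 before to 50 after the annotated start, came from RefSeq (GRCm38.p6) and were found for 34 of the 45 members. Capitals mark matches, on either strand, to an NRF1 core (GCGCNTGCG, which is nearly its own reverse complement, so that 1 site can match on both strands), a GABP core (CCGGAAG) or a YY1 core (AANATGGCG). Positions are given along the transcript, with the annotated start as 0. Cycs, the cytochrome c gene (chr6:50566520-50566819, minus strand), has an NRF1 match at −61. Uqcr10 of complex III (chr11:4704295-4704594, minus strand) has one at 1. Cox6a1 of complex IV (chr5:115348909-115349208, minus strand) has NRF1 matches at −162, −161 and −116 and a GABP match at −16. Atp5md of ATP synthase (chr19:47090598-47090897, minus strand) has an NRF1 match at −197 and a GABP match at 2. Cox7a2l (chr17:83514284-83514583, minus strand), whose level differed little between the groups, has a match to none of the motifs and is shown as a window without one. The genes shown are examples. Cox7c, Cox5b, Cox7a2, Cox7b, Cox5a, Atp5pb and Atp5g1 were higher with ASPS-A1 and have no match either. Atp5k, which did not pass the test, has NRF1 matches at −50 and −49 and a GABP match at 12.
Cycs: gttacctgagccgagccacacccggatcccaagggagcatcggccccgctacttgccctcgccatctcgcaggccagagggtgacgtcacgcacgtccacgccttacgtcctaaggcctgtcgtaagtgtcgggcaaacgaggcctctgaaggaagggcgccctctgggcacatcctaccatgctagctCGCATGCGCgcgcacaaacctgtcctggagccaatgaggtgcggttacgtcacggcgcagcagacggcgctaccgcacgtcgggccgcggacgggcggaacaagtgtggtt
Uqcr10: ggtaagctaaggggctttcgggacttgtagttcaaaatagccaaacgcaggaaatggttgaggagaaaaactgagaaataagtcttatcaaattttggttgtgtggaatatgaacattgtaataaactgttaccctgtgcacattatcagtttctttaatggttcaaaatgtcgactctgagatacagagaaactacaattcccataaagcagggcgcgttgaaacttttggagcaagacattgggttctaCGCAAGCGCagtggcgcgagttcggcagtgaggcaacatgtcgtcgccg
Cox6a1: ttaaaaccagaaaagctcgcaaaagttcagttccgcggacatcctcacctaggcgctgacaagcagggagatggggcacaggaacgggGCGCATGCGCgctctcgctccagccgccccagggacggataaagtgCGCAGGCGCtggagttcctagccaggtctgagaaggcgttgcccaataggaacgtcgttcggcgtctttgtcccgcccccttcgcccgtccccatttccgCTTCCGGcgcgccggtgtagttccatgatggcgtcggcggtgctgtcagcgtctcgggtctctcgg
Atp5md: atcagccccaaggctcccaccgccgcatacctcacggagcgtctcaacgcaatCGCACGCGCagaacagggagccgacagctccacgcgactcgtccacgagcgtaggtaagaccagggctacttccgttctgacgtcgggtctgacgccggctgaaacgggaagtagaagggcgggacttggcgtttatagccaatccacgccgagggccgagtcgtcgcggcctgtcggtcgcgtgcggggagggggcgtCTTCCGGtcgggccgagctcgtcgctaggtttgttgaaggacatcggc
Cox7a2l: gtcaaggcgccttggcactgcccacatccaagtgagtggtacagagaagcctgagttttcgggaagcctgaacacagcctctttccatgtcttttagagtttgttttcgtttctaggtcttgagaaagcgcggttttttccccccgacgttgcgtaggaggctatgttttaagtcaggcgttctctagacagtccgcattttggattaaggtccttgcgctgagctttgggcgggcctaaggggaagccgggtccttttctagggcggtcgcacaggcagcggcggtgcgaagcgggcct

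An NRF1 match was present in 14 of the 34 members with a window (41.2%), against 7.12% of the 27025 genes with one and 15.7% of the 9277 tested genes with one. GABP matches were found in 11 members (32.4%), against 9.93% of all genes and 20.9% of tested genes. YY1 matches were found in 3 members (8.82%), against 2.76% and 6.27%. At least 1 of the 3 motifs was present in 21 members (61.8%) and in 17.3% of all genes. The combined share was not computed for tested genes, among which each motif was more common than among all genes. Among the 28 members that passed the test as higher, 13 had an NRF1 match, and among the 6 others with a window 1 did (Atp5k). Those others are Atp5k, Cox7a1 and Cox7a2l, which did not pass, and Cox7b2, Cox6b2 and Cox8b, which had too few counts to test. They are therefore no fair contrast to the higher members, and a link of matches with the change was not tested. Atp5g1 and Uqcrfs1, at opposite ends of the range of changes, both lack all 3 motifs. These matches describe letters in a window and were not tested for binding.

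Across the members, 37 of the 41 tested were higher with ASPS-A1, 0 were lower and 4 (Cox7a1, Cox7a2l, Cox4i2 and Atp5k) did not pass the test (edgeR quasi-likelihood test, Benjamini-Hochberg adjusted p under 0.05 over all genes). Over all 11686 genes tested, 32.4% were higher and 33% lower. The members' median log2 fold change was 0.60, against −0.02 for all genes. The levels of the groups did not overlap for 39 of the 41, which compares with 68.5% of all genes tested, and 38 of these 39 were higher with ASPS-A1. Changes were moderate in size: 22 members were at least 1.5-fold higher, and 3 (Uqcrq, Atp5md and Atp5g1) at least 2-fold. The test against a minimum change of 1.5-fold (glmTreat), which asks for more than the estimate passing that size, called 9 members higher, against 6.95% of all genes.

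Of the 4 rows that had too few counts to test, Cox7b2, Cox6b2 and Cox8c had none in any library. Cox8b had 1 count in ASPS-A1 library 2 and 1 in control library 2. All 4 belong to complex IV and are known as isoforms of testis (Cox7b2, Cox6b2, Cox8c) or of heart and skeletal muscle (Cox8b).

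**Figure D1:**
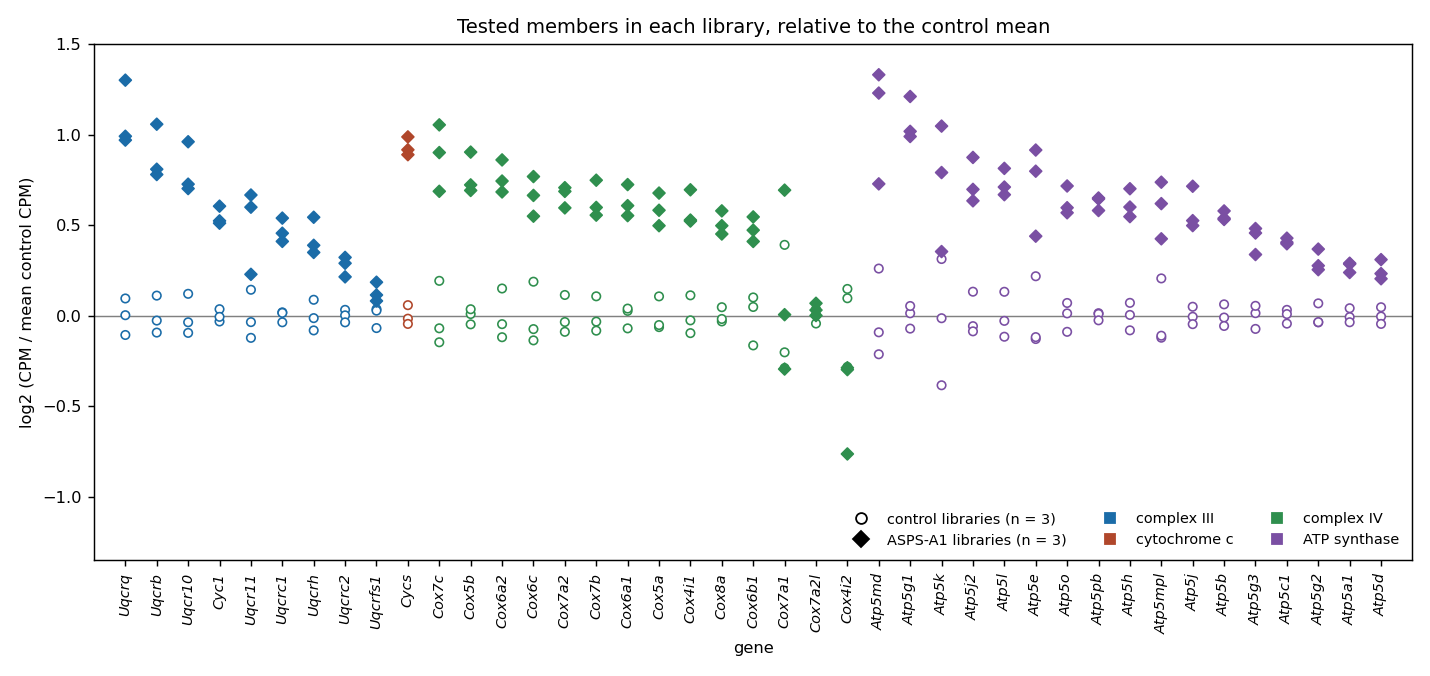
Level of each tested member in each library, as log2 of its CPM over the mean CPM of the 3 control libraries (y axis), by gene in the order of the fold change within each complex (x axis). Open circles are control libraries and filled diamonds ASPS-A1 libraries, coloured by complex. The diamonds lie above the circles for 38 of the 41 genes, overlap with them for Cox7a1 and Cox7a2l, and lie just below them for Cox4i2.

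In complex III all 9 members were higher with ASPS-A1, with a median log2 fold change of 0.51 and a range from 0.13 to 1.09. The change was largest in 3 small accessory subunits. Uqcrq, a subunit known as the ubiquinone-binding protein, stood at 202, 251 and 199 CPM in the ASPS-A1 libraries and at 102, 109 and 94.6 CPM in control. Every ASPS-A1 library was far above every control library, a difference of 2.14-fold (log2 fold change 1.09 ± 0.092 SE, adjusted p = 3.46e-06). Uqcrb, another small subunit near the quinone site, had 122, 145 and 119.9 CPM against 65.5, 75.5 and 68.6 (log2 fold change 0.89 ± 0.065 SE, adjusted p = 2.39e-13). Uqcr10, a single-span subunit beside cytochrome c1, had 89.6, 105 and 88.2 CPM against 50.8, 58.9 and 52.9 (log2 fold change 0.80 ± 0.066 SE, adjusted p = 1.50e-13). In each of these genes the groups were separate and ASPS-A1 library 2 was the highest.

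Under this scaling the catalytic and core subunits rose less. That order held only in part after adjustment for transcript length and GC content. Uqcrq stayed the highest at 0.56 and Uqcrc2 stood at 0.11. Cyc1 stood at 0.35 and Uqcrc1 at 0.32, however, against 0.32 for Uqcrb and 0.26 for Uqcr10. Cyc1, cytochrome c1, which hands electrons to cytochrome c, had 242, 256 and 239.9 CPM with ASPS-A1 and 173, 165 and 168 in control (log2 fold change 0.55 ± 0.047 SE, adjusted p = 4.92e-14). Uqcrc2, a core subunit with more counts than any other member of the complex (not corrected for length), had 286, 301 and 308 CPM against 252, 247 and 240.04 (log2 fold change 0.28 ± 0.047 SE, adjusted p = 1.28e-06), and its call ended under scaling by library totals (0.08, adjusted p = 0.106). Its partner Uqcrc1 lay between Cyc1 and Uqcrc2, with a log2 fold change of 0.47. The smallest change was that of Uqcrfs1, the Rieske iron-sulfur protein, which is inserted last during assembly. It had 136, 143 and 133 CPM with ASPS-A1 and 129, 128 and 119.6 in control, groups that came within a few CPM of each other (log2 fold change 0.13 ± 0.051 SE, adjusted p = 0.0259). That call ended without ASPS-A1 library 2 (adjusted p = 0.0992), without control library 3 (adjusted p = 0.163), and with upper-quartile factors (adjusted p = 0.179). Under library totals its value was −0.07, and after adjustment for length and GC it was called lower (−0.13, adjusted p = 0.00922). The remaining subunits, the hinge protein Uqcrh (log2 fold change 0.43) and Uqcr11 (0.51), both rose. After the length and GC adjustment Uqcrh was called lower (−0.11, adjusted p = 0.0150) and Uqcr11 no longer passed (0.004, adjusted p = 0.966).

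The summed level of the 9 genes was 1573, 1738 and 1559.99 CPM with ASPS-A1 and 1137, 1165 and 1094 in control, a ratio of 1.43. The sum was 1.252 times the control when the libraries were scaled by their totals alone.

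Cycs, the somatic cytochrome c gene, had the smallest adjusted p of all members. Its level was 375, 393 and 368 CPM in the ASPS-A1 libraries and 196, 207 and 192 CPM in control. The ASPS-A1 libraries were close to each other and far from control, 1.91-fold higher (log2 fold change 0.93 ± 0.047 SE, adjusted p = 6.18e-22). It is also the member with the longest transcript, 3123 nt, whereas the median member measures 645 nt. The change was 0.74 when libraries were scaled by totals and 1.01 after adjustment for transcript length and GC content. The longest near-identical copy among annotated transcripts of other genes covers 30.3% of its transcript, so its count may include or lose reads there.

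Cytochrome c released from mitochondria joins Apaf1 to activate caspases, and 9 genes of that step were described beside it. Of these, 5 were higher with ASPS-A1 (55.6%), 3 lower (33.3%) and 1 (Xiap) did not pass, beside 32.4% higher and 33% lower among all genes tested. Bax, which opens the outer membrane, rose by 0.89 on the log2 scale (adjusted p = 2.14e-20), and Diablo, which counters caspase inhibitors, by 0.48 (adjusted p = 3.32e-07), a call that ended after adjustment for length and GC (0.03, adjusted p = 0.725). Apaf1 itself was lower, by −0.57 on the log2 scale (adjusted p = 4.93e-10).

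In complex IV, 11 of the 14 tested members were higher with ASPS-A1 and 3 did not pass, with a median log2 fold change of 0.61. All 11 are subunits, or tissue forms of subunits, that wrap the catalytic core made in the mitochondrion. Cox7c, a single-span membrane subunit, had 189, 209.9 and 163 CPM with ASPS-A1 and 91.4, 116 and 96.4 in control (log2 fold change 0.89 ± 0.14 SE, adjusted p = 0.00282). Cox5b, a zinc-binding subunit on the matrix side, had 131, 148 and 128 CPM against 79.8, 81.3 and 76.7 (log2 fold change 0.78 ± 0.056 SE, adjusted p = 1.67e-16). The groups were separate in both genes, but the libraries of one group were spread more widely for Cox7c. The subunits Cox6c, Cox7b and Cox5a rose by 0.66, 0.64 and 0.59 on the log2 scale. The summed level of the complex was 1.40 times control (1.22 by library totals).

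Several subunits of complex IV exist as pairs of isoforms, and these did not all move alike. For subunit 4, Cox4i1, the common form, had 574, 644 and 572 CPM with ASPS-A1 and 391, 430.3 and 372 in control (log2 fold change 0.58 ± 0.053 SE, adjusted p = 1.58e-12). Cox4i2, the form known from lung and induced at low oxygen, stood at 2.72, 1.96 and 2.70 CPM against 3.55, 3.68 and 2.73. The common form was thus higher in every ASPS-A1 library, whereas the rare form lay just below its control range (log2 fold change −0.42 ± 0.24 SE, adjusted p = 0.116). Scaling by library totals gave −0.62 for Cox4i2 (adjusted p = 0.0220) and adjustment for length and GC gave −0.83 (adjusted p = 0.00226), both past the threshold. Its share of the counts of the pair was 0.472%, 0.303% and 0.470% with ASPS-A1 and 0.899%, 0.847% and 0.727% in control. The groups did not overlap, and the exact permutation test over libraries gave p = 0.1, the smallest possible with 3 libraries against 3 (0.175 adjusted over the 7 isoform shares compared).

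For subunit 6a, the liver form Cox6a1 and the heart and muscle form Cox6a2 rose by similar amounts. Cox6a1 had 168, 182 and 162 CPM with ASPS-A1 and 112, 113 and 105 in control (log2 fold change 0.63 ± 0.052 SE, adjusted p = 1.24e-14). Cox6a2 had 36.9, 40.04 and 35.4 CPM against 20.3, 21.4 and 24.5 (log2 fold change 0.76 ± 0.084 SE, adjusted p = 5.41e-11). Both were separate between the groups, and Cox6a2, although a muscle form, stood at 20.3 CPM or more in every library. Its share of the pair was 18.02%, 18.02% and 17.96% with ASPS-A1 and 15.3%, 15.9% and 18.9% in control, within the spread of the control libraries (exact permutation p = 0.4). Exons of Cox6a2 overlap those of Itgad, a leukocyte integrin on the opposite strand, over 10.3% of their length, and whether counting used strand is not given in the sources used here. Striated muscle markers summed to at most 8.44 CPM in any library.

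The Cox7a genes moved apart. Cox7a2, the common form, had 144, 154 and 156 CPM with ASPS-A1 and 93.2, 103 and 89.8 in control (log2 fold change 0.66 ± 0.054 SE, adjusted p = 9.80e-15). Cox7a2l, a related protein known for joining complexes III and IV into supercomplexes, had 542, 569 and 554 CPM against 556, 544 and 526. Its groups overlapped (log2 fold change 0.03 ± 0.047 SE, 95% interval −0.06 to 0.13, adjusted p = 0.536). Scaling by library totals placed Cox7a2l lower by −0.16 (adjusted p = 0.00105), and adjustment for length and GC by −0.30 (adjusted p = 9.51e-10). Its share of Cox7a counts was 78.5% ± 0.462 (SD, n = 3) with ASPS-A1 and 84.9% ± 0.891 (SD, n = 3) in control, without overlap (exact permutation p = 0.1, the smallest possible). Cox7a1, the heart and muscle form, had only 22, 12 and 10 counts with ASPS-A1 and 14, 22 and 15 in control, too few to show a difference of moderate size (log2 fold change 0.21 ± 0.44 SE, 95% interval −0.68 to 1.11, adjusted p = 0.695). It made up 0.106% of Cox7a counts with ASPS-A1 and 0.101% in control (exact permutation p = 0.8).

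For subunits 6b and 8 the common form alone was measured. Cox6b1 had 184, 175 and 167 CPM with ASPS-A1 and 130.3, 135 and 112 in control (log2 fold change 0.48 ± 0.056 SE, adjusted p = 1.23e-09). Cox8a had 250.4, 265 and 243 CPM against 174, 183 and 175 (log2 fold change 0.51 ± 0.048 SE, adjusted p = 5.70e-13). The groups were separate in both genes. After adjustment for length and GC neither passed the test, with values of −0.07 for Cox6b1 and 0.05 for Cox8a.

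**Figure D2:**
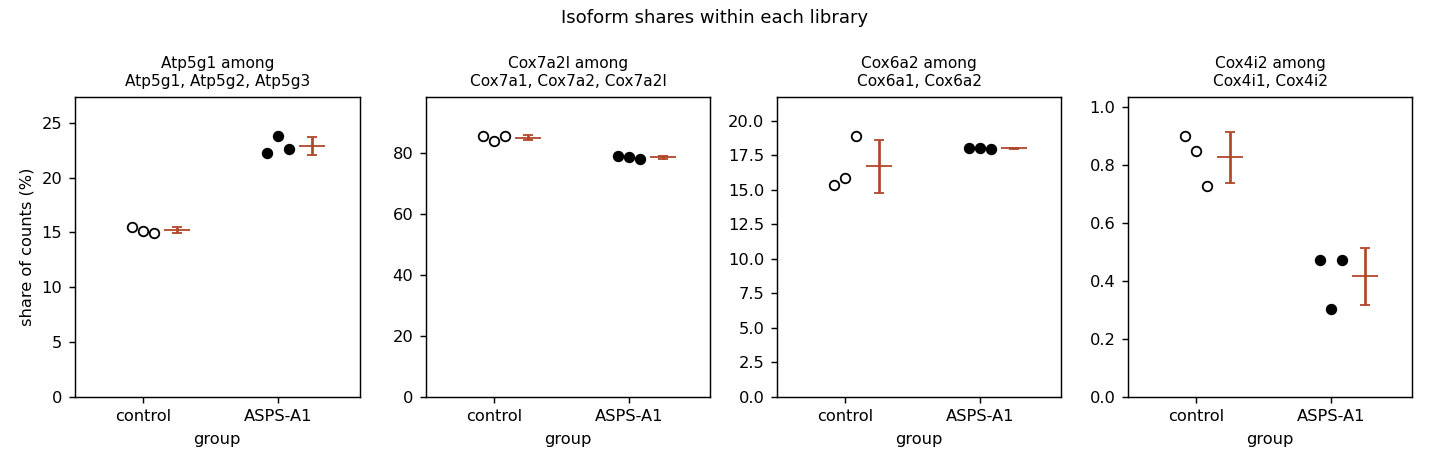
Share of the counts of an isoform group held by 1 isoform (y axis, %, from 0), in each control library (open circles) and each ASPS-A1 library (filled circles), with the mean and SD of each group (n = 3) beside the points. The Atp5g1 share is near 15% in control and near 23% with ASPS-A1. The shares of Cox7a2l and Cox4i2 are lower with ASPS-A1, and the Cox6a2 share with ASPS-A1 lies inside the control range.

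In ATP synthase, 16 of 17 members were higher with ASPS-A1, 1 did not pass, and the median log2 fold change was 0.62. Its subunits divide into the catalytic head, the stalks and the membrane part. In the head, Atp5b, the catalytic beta subunit, stood at 1652, 1706 and 1659 CPM with ASPS-A1 and at 1194, 1135 and 1099 in control. The ASPS-A1 libraries agreed within a few percent and all exceeded the control libraries (log2 fold change 0.55 ± 0.047 SE, adjusted p = 3.34e-14). Atp5a1, the alpha subunit that alternates with beta in the head, rose less (log2 fold change 0.27 ± 0.046 SE, adjusted p = 1.57e-06) and did not pass under library totals (0.08, adjusted p = 0.0957). The subunits of the rotating central stalk had log2 fold changes of 0.41 (Atp5c1, gamma), 0.25 (Atp5d, delta) and 0.73 (Atp5e, epsilon). Atp5d did not pass under library totals (0.05, adjusted p = 0.299) or after adjustment for length and GC (−0.05, adjusted p = 0.282). Atp5e varied most among them, with 155, 168 and 121 CPM against 81.6, 104 and 82.2, and its adjusted p of 0.0198 lay between 0.0600 and 0.0724 without ASPS-A1 library 1 or 2 or control library 1 or 3. The peripheral stalk, which holds the head still, had Atp5o at 0.63, Atp5pb at 0.63, Atp5h at 0.62 and Atp5j at 0.58, a narrow range. After adjustment for length and GC the range was wider, with 0.23, 0.43, 0.14 and 0.13 in the same order. Counts of Atp5o are uncertain, since the longest near-identical copy covers 76.7% of its transcript. Other annotated entries, among them another entry named Atp5o, share 47.9% of its exon length.

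The largest changes in the main test lay in the membrane part and its small accessory subunits, which help ATP synthase pair into dimers. Not all genes of that part were among them: Atp5mpl stood at 0.60, Atp5g3 at 0.43 and Atp5g2 at 0.30. Atp5e of the central stalk, at 0.73, came close to Atp5l. After adjustment for length and GC only Atp5g1 (1.11) and Atp5md (0.48) stayed the largest. Atp5j2 then stood at 0.30, Atp5l at 0.21, Atp5k at 0.16 and Atp5mpl at 0.06, against 0.43 for Atp5pb and 0.42 for Atp5b. Atp5md, an accessory subunit also called DAPIT, had 115, 124 and 81.4 CPM with ASPS-A1 and 46.1, 58.9 and 42.4 in control, 2.17-fold higher (log2 fold change 1.12 ± 0.23 SE, adjusted p = 0.0110). The groups were separate, with ASPS-A1 library 3 well below the other two. Atp5j2, subunit f, had 120.1, 136 and 115 CPM against 71.2, 81.2 and 69.8 (log2 fold change 0.74 ± 0.062 SE, adjusted p = 5.90e-13). Atp5l, subunit g, rose by 0.73 and Atp5mpl, a small proteolipid, by 0.60. Atp5k, subunit e, had 26.3, 31.4 and 19.4 CPM with ASPS-A1 and 11.7, 18.9 and 15.1 in control. Its lowest ASPS-A1 library was only just above its highest control library (log2 fold change 0.76 ± 0.26 SE, adjusted p = 0.0538). The call changed with the setting: the adjusted p was 0.0104 with DESeq2, 0.000252 without ASPS-A1 library 3, 0.0243 without control library 1 and 0.00274 without control library 2. It also passed without the filter on low counts, in the non-robust fit and with thinned libraries.

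The proton-carrying ring of ATP synthase is built from the c subunit, whose mature protein is the same from 3 genes that differ in their import sequences. Atp5g1 had 171, 196 and 168 CPM with ASPS-A1 and 85.4, 87.8 and 80.6 in control, 2.11-fold higher (log2 fold change 1.08 ± 0.055 SE, adjusted p = 3.32e-21). Atp5g2 had 385, 411 and 379.5 CPM against 310.2, 334 and 310.5 (log2 fold change 0.30 ± 0.048 SE, adjusted p = 4.01e-07). Atp5g3 had 212, 215 and 195 CPM against 156, 160.3 and 147 (log2 fold change 0.43 ± 0.050 SE, adjusted p = 2.89e-10). All 3 genes were higher in every ASPS-A1 library, but by unequal amounts, so their mix differed. The Atp5g1 share of c-subunit counts was 22.9% ± 0.804 (SD, n = 3) with ASPS-A1 and 15.2% ± 0.267 (SD, n = 3) in control, and the Atp5g2 share was 50.4% ± 0.617 against 57.1% ± 0.771. Neither share overlapped between the groups (exact permutation p = 0.1 for each, the smallest possible, and 0.175 adjusted over the 7 shares), and the Atp5g3 share, 26.7% against 27.7%, did overlap (exact permutation p = 0.3). Atp5g1 is the known regulated gene of the 3 in other tissues. The longest near-identical copy spans 645 nt of Atp5g2 and 411 nt of Atp5g1, which is 88.2% and 8.72% of their longest annotated transcripts. The longest Atp5g1 transcript has 4715 nt, and the same copy could cover more of its shorter forms. Both counts are therefore uncertain. After adjustment for length and GC the change of Atp5g1 was 1.11, that of Atp5g3 −0.03 (adjusted p = 0.577) and that of Atp5g2 −0.17 (adjusted p = 0.000214).

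The ATP synthase genes together held 5943, 6264 and 5888 CPM with ASPS-A1 and 4315, 4355 and 4096 in control, a ratio of 1.42 (1.24 by library totals). Over all 45 rows the sum was 10705, 11426 and 10559 CPM against 7673, 7883 and 7329.95, a ratio of 1.43 (1.247 by library totals).

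Levels of different genes were compared per kilobase of transcript, over the 35 rows whose annotated transcripts vary little in length. In control, Atp5b (596 CPM per kb), Cox4i1 (527), Cox7a2l (492) and Uqcrh (379.6) were the highest. With ASPS-A1 the same 4 genes led, in the order Atp5b (873 CPM per kb), Cox4i1 (790.2), Uqcrh (511) and Cox7a2l (504). Cycs moved from 63.6 to 121 CPM per kb, from place 27 to place 24 of 35. Cox6a2 stood at 32.4 CPM per kb in control, Cox4i2 at 4.54 and Cox7a1 at 1.48, far below their common partners. Subunits of 1 complex therefore spanned a wide range of transcript levels in both groups.

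Among libraries of the same group the members moved as a block. ASPS-A1 library 2 was the highest of its group for 36 of the 41 members and library 3 the lowest for 31. In control, library 2 was the highest for 31 and library 3 the lowest for 30. Other genes with transcripts of up to 1000 nt leaned the same way, with 61.1% highest in ASPS-A1 library 2 and 52.5% in control library 2, whereas over all other genes with a length the shares were 36.7% and 34.6%. Leaving out ASPS-A1 library 2 left 35 members higher and a median log2 fold change of 0.54, and leaving out control library 3 left 35 and 0.56.

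The mitochondrially encoded partners moved in mixed directions under TMM scaling, and none was called higher under the other scalings below. CYTB of complex III had 1498, 1636 and 1578 CPM with ASPS-A1 and 1775, 1739 and 2079.7 in control (log2 fold change −0.25 ± 0.055 SE, adjusted p = 0.000198). COX1, the catalytic subunit of complex IV, had 37235, 38745 and 40602 CPM against 32042, 33292 and 35181 (log2 fold change 0.21 ± 0.048 SE, adjusted p = 0.000144). CYTB was lower and COX1 higher in every ASPS-A1 library, although COX1 stood at 0.02 under library totals and −0.03 after adjustment for length and GC. COX2, which receives electrons from cytochrome c, had 6469.8, 6712 and 6709 CPM against 6969.9, 7644 and 7982 (log2 fold change −0.18 ± 0.049 SE, adjusted p = 0.00102). The log2 fold change of COX3 was −0.10 (adjusted p = 0.0583) and that of ATP6, part of the proton channel of ATP synthase, −0.01 (adjusted p = 0.914). ATP8 shares part of its sequence with ATP6 and had 1569, 3778 and 3783 counts in the control libraries, a spread that left its log2 fold change of −0.82 short of the threshold (adjusted p = 0.123). Of the 6 partners 1 was thus higher, 2 were lower and 3 did not pass, beside 32.4% higher and 33% lower among all genes tested. Under library totals 0 were higher and 4 lower, with COX3 at −0.30 and ATP6 at −0.20 now past the threshold (adjusted p = 3.22e-08 and 0.000322). Among all genes 21.6% were then higher and 46.7% lower, with a median log2 fold change of −0.22. After adjustment for length and GC 0 were higher and 5 lower, with COX3 at −0.56, ATP6 at −0.47 and ATP8 at −1.46 (adjusted p = 1.44e-18, 5.07e-07 and 0.0141). That adjustment left 32.4% of all genes higher and 30.1% lower.

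The balance of counts within a complex therefore differed between the groups. Nuclear genes held 50.8% ± 0.957 (SD, n = 3) of complex III counts with ASPS-A1 and 37.9% ± 3.00 (SD, n = 3) in control. For complex IV the nuclear share was 5.50% ± 0.361 against 4.35% ± 0.340, and for ATP synthase 49.8% ± 0.676 against 40.9% ± 2.78. The groups did not overlap in any of the 3 shares, which do not depend on the scaling of libraries. They do mix nuclear and mitochondrial transcripts of unlike length, so they describe counts, not molecules.

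**Figure D3:**
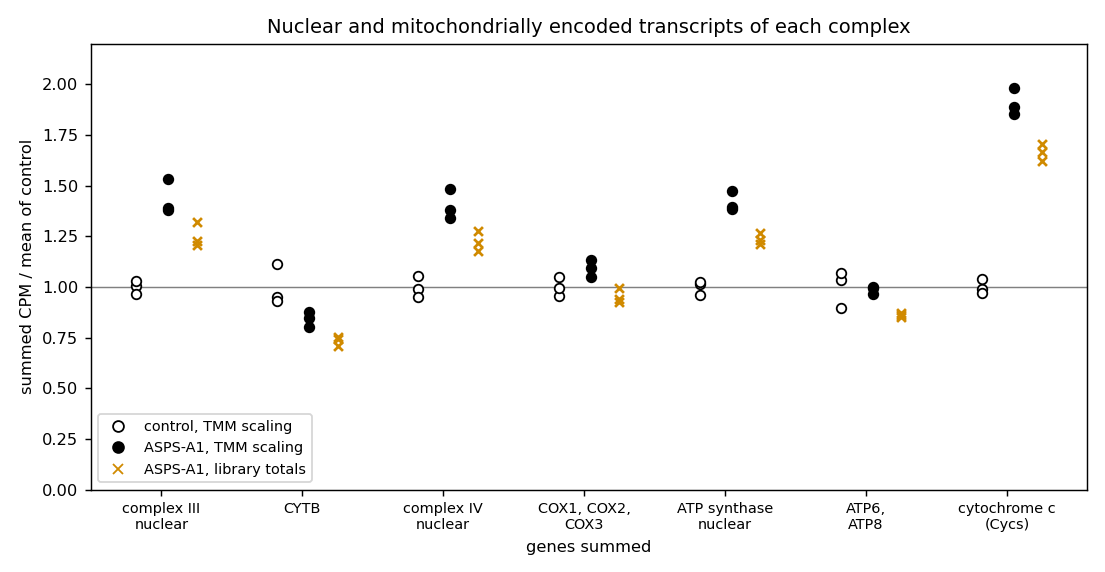
Summed CPM of the nuclear genes of each complex and of their mitochondrially encoded partners, divided by the control mean (y axis, from 0). Open circles are control libraries and filled circles ASPS-A1 libraries under TMM scaling, and crosses are ASPS-A1 libraries scaled by totals, each against the control mean on its own scale. The nuclear sums lie above the control libraries on both scales, CYTB lies below them, and the group means of COX1 to COX3 and of ATP6 with ATP8 lie between 0.862 and 1.09.

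The genes that build and serve these complexes were described from fixed lists. Of 22 genes of mitochondrial protein import, which brings nuclear subunits into the organelle, 19 were higher, 0 lower and 3 did not pass. The largest were Hspe1, the matrix co-chaperonin (log2 fold change 1.05, adjusted p = 3.96e-07), and Timm50, a receptor of the inner membrane translocase (1.03, adjusted p = 8.50e-18). Of 8 tested carriers and channels that exchange ADP, ATP and phosphate or cross the outer membrane, 7 were higher and 0 lower, led by Vdac3, an outer membrane channel (1.10, adjusted p = 8.29e-25), and Slc25a5, an ADP/ATP carrier (0.66, adjusted p = 1.04e-16). These shares compare with the 32.4% higher among all genes.

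Of 30 tested genes for complex IV assembly, copper delivery and haem a, 18 were higher (60%), 4 lower (13.3%) and 8 did not pass. After adjustment for length and GC 11 were higher (36.7%) and 6 lower (20%), beside 32.4% and 30.1% of all genes. Cox17, the copper chaperone, rose most, by 1.21 on the log2 scale (adjusted p = 8.88e-05), and Cox18, which inserts part of COX2 into the membrane, rose by 0.84 (adjusted p = 4.64e-16). Tmem177, which stabilises newly made COX2, was lower, with a log2 fold change of −1.76 (adjusted p = 6.30e-10), and Taco1, which promotes translation of COX1, was lower at −0.62 (adjusted p = 2.25e-05). Ndufa4, now counted as a subunit of complex IV but outside the naming rule, rose by 0.72 on the log2 scale (adjusted p = 2.28e-16) and was picked after its values were seen. For complex III assembly 3 of 9 (33.3%) were higher, near the 32.4% of all genes, and 0 lower. The higher genes were Uqcc6 (log2 fold change 0.68) and the early cytochrome b factors Uqcc1 (0.67) and Uqcc2 (0.64). Uqcc2 did not pass after adjustment for length and GC (0.12, adjusted p = 0.0735). Uqcc6 had no annotated length, so that adjustment could not be applied to it. Bcs1l and Lyrm7, which insert the Rieske protein encoded by Uqcrfs1, had log2 fold changes of 0.08 (adjusted p = 0.461) and 0.01 (adjusted p = 0.955). Of 7 assembly and inhibitor genes of ATP synthase 4 were higher (57.1%) and 1 lower (14.3%), with Tmem242, an assembly factor of the c-ring, at 0.57 (adjusted p = 1.20e-09), Atpif1, the inhibitor of ATP hydrolysis, at 0.45 (adjusted p = 1.35e-07) and Dmac2l at −0.29 (adjusted p = 0.0144). After the same adjustment 1 of these 7 genes was higher and 2 were lower, and Atpif1 stood at −0.09 and did not pass (adjusted p = 0.0929).

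Of 15 regulators of mitochondrial biogenesis 3 were higher (20%, beside 32.4% of all genes) and 5 lower (33.3%, beside 33%). Esrra, a nuclear receptor that drives respiratory genes (0.59, adjusted p = 9.72e-10), Tfb1m (0.55) and Nrf1, the factor whose core is marked in the promoters above (0.47, adjusted p = 4.76e-07), were the higher ones. Mterf1a (−0.98, adjusted p = 0.000387) and Twnk, the mitochondrial DNA helicase (−0.88, adjusted p = 1.08e-07), were the largest on the lower side. Gabpa, whose exons overlap 12.7% of those of Atp5j on the opposite strand, stood at −0.05 on the log2 scale (adjusted p = 0.467) and Yy1 at −0.01 (adjusted p = 0.905). Both were called lower under library totals (Gabpa −0.25, adjusted p = 0.000776, and Yy1 −0.20, adjusted p = 0.00153), and Yy1 was called higher after adjustment for length and GC (0.28, adjusted p = 1.22e-06). In succinate dehydrogenase (complex II), all of whose subunits are nuclear, 5 of 8 genes were higher and 1 lower. Sdhaf3, an assembly factor (0.85), and Sdhb, the iron-sulfur subunit (0.47), were higher, and Sdha, the flavoprotein, was lower at −0.26 (adjusted p = 4.06e-06).

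Transcript length moved with the change over the whole table. Across 11395 tested genes the rank correlation of log2 fold change with transcript length was −0.39, and across the 41 members it was −0.26, where points share libraries and GC content. Of the 990 tested genes with transcripts of up to 1000 nt, 64.9% were higher and 9.09% lower, with a median log2 fold change of 0.46. The 29 tested members of that length had 26 higher and a median of 0.63. Longer genes had a median of −0.06, whereas the 12 longer members had 11 higher and a median of 0.51. The members' median thus lay above that of all genes in both length classes, by less in the short class.

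**Figure D4:**
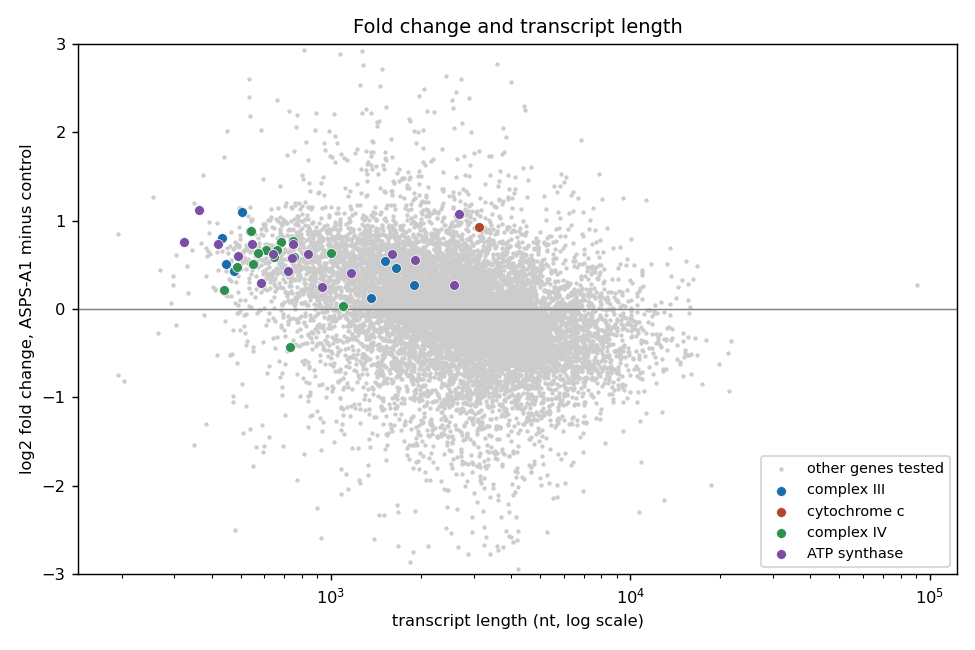
Log2 fold change (y axis) against transcript length in nt (x axis, log scale) for all tested genes with a length (grey) and for the members, coloured by complex. Most members lie at the short end, where grey points also lie mainly above 0, while Cycs and Atp5g1 stand apart among longer transcripts. 44 genes lie outside the plotted range of fold changes.

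The scaling of the libraries set how many members passed. Scaling by library totals alone shifted the median of all genes by −0.19 on the log2 scale and left 33 members higher and 2 lower (Cox7a2l and Cox4i2), with a median of 0.40, where 21.6% of all genes were higher and 46.7% lower. When a trend of each library on transcript length and GC was removed by offsets, 28 members were higher and 5 lower (Uqcrh, Uqcrfs1, Cox7a2l, Cox4i2 and Atp5g2), with a median of 0.18, where 32.4% of all genes were higher and 30.1% lower. Under all 3 scalings 26 members were higher: Cycs, 5 of complex III, 9 of complex IV and 11 of ATP synthase. Among members with longer transcripts, the offsets gave log2 fold changes of 1.01 for Cycs, 1.11 for Atp5g1, 0.43 for Atp5pb, 0.42 for Atp5b and 0.30 for Atp5a1. The length of Atp5g1 is itself unsure, since its annotated transcripts differ 7.91-fold in length, as do those of Atp5md (7.76-fold) and Uqcrq (3.76-fold).

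**Figure D5:**
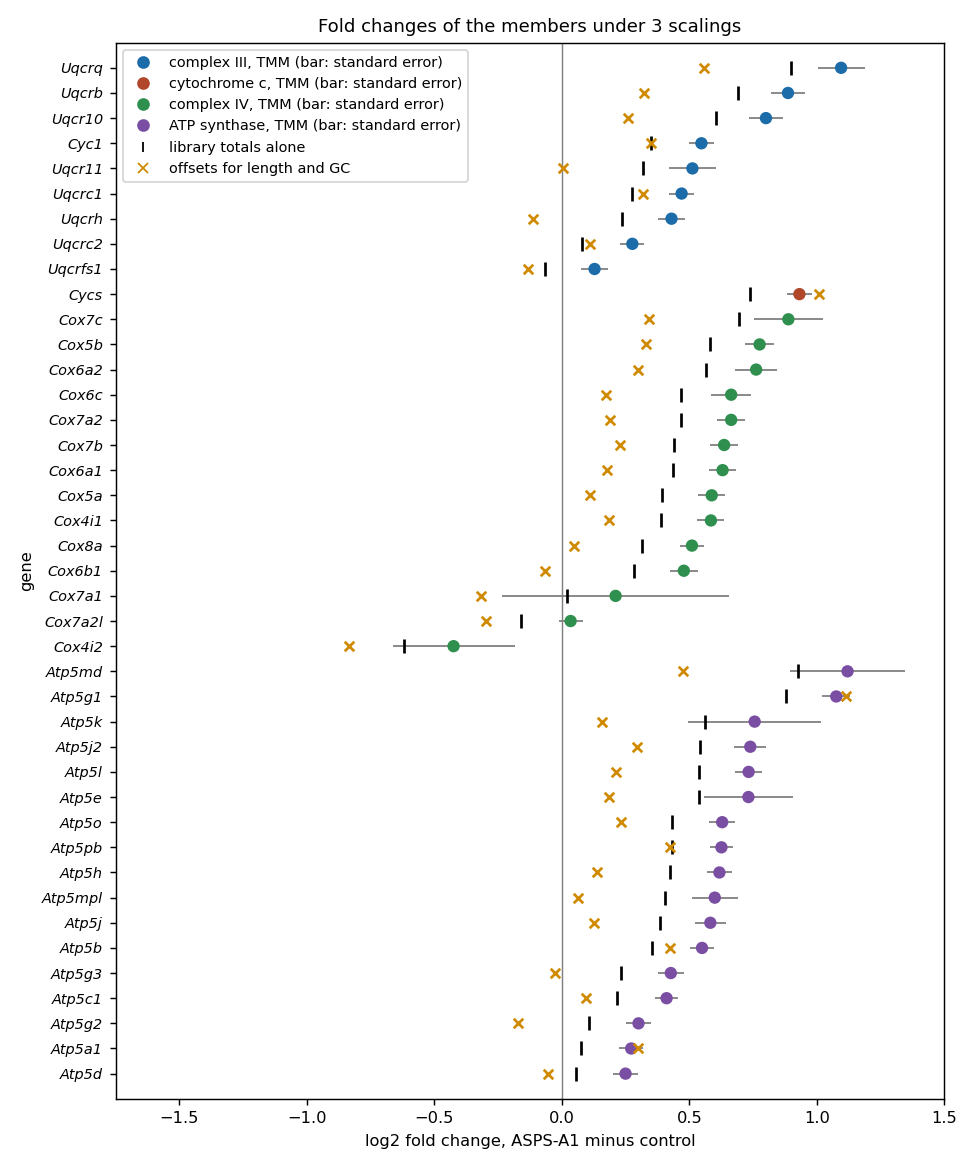
Log2 fold change of each tested member (x axis) under TMM scaling (circles with standard error bars, coloured by complex), under scaling by library totals (black ticks) and after the length and GC offsets (crosses). Totals move every gene to the left by nearly the same amount, whereas the offsets move most short genes towards or past 0 and leave Cycs and Atp5g1 near 1.

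Members were also divided by near-identical copies among annotated transcripts of other genes and by exons shared with other annotated entries. Of the 26 tested members without such a copy 23 were higher, with a median log2 fold change of 0.57, and of the 15 with a copy 14 were higher, with a median of 0.63. Of the 27 without shared exons 23 were higher (median 0.60), and of the 14 with shared exons all 14 (median 0.61). How reads that fit several genes were counted is not given in the sources used here.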

How the data were processed

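RNA of 6 RAW 264.7 libraries, 3 labelled ASPS-A1 and 3 labelled control, was enriched for poly(A) with oligo(dT), fragmented and primed at random, per the labels' protocols. The deposited table holds the authors' raw counts per gene symbol, in whole numbers with no normalization. Tools named in the submitters' processing notes are DESeq 1.38.3, fastp 0.22.0, HTSeq 0.9.1 and HISAT2 2.1.0. The sources used here do not give the genome build, annotation, strand setting or handling of ambiguous reads. Columns were mapped by title. The titles of the treated libraries read ASPS-A1, ASPS-A2 and ASPS-A3 while the treatment label of each is ASPS-A1; they were grouped by that label, and their being replicates of 1 treatment rests on it.

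Genes were kept with filterByExpr (minimum count 10, minimum total 15), scaled with TMM factors and fitted over all 11686 genes by robust quasi-likelihood in edgeR 4.0.16 (R 4.3.3), with group as the only term. Tests were two-sided, adjusted by Benjamini-Hochberg over all genes, threshold 0.05. CPM use TMM-scaled library sizes, and fold changes are ASPS-A1 minus control. The common biological coefficient of variation was 5.66%. Isoform shares were compared with exact two-sided permutation tests. The test script was checked on simulated data.

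Members and lists were chosen with earlier results of these data known. Given in full were, per complex, the most abundant member, the 3 largest changes, members lower or not past the threshold, Cycs, Cyc1 and isoform groups; per list, all mitochondrially encoded partners or up to 2 genes in each direction. The result of 1 gene that the rule names is not reported here. Promoters are from RefSeq. Protein sequences were not used here.

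Lengths, GC content, exon overlap and copies (blastn 2.17.0, at least 97% identity over at least 150 nt) came from GENCODE mouse release 21 on GRCm38; 97.5% of tested genes had a length. Alternatives were other scalings, offsets for length and GC (lowess span 0.3), DESeq2 1.42.0, limma-voom (limma 3.58.1), other filters, a non-robust fit, glmTreat against 1.5-fold, thinning to 19989318 counts, a block for the library number and leaving out each library. Within a group, pairs of libraries differed beyond counting error, with 4.21 to 6.80 units of chi-square for each degree of freedom.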

Additional observations from a re-analysis of the deposited data

How the results depend on the processing

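Under relative log expression or upper-quartile factors, DESeq2, limma-voom, either other filter, the non-robust fit, thinning or leaving out any library, 35 to 38 members were higher (37 as reported), 0 lower, and the median was 0.54 to 0.64. Of 41 tested members, 10 kept their call under every alternative and 31 lost or gained it under at least 1, mostly glmTreat; 35 kept it under the scaling alternatives other than the offsets. Library totals gave medians of 0.40 (all members), 0.32 (complex III), 0.41 (complex IV) and 0.42 (ATP synthase), with 2 members lower, both in complex IV. Summed CPM ratios there were 1.252 (complex III), 1.67 (cytochrome c), 1.22 (complex IV), 1.24 (ATP synthase) and 1.247 (all). The offsets gave medians of 0.18, 0.26, 0.18 and 0.18, and members lower numbered 5 in all, 2 in complex III, 2 in complex IV and 1 in ATP synthase. Against 1.5-fold, 9 members stayed higher, 3 in complex III, 2 in complex IV and 3 in ATP synthase. Higher calls ended under totals for Uqcrc2, Atp5a1, Atp5d and Uqcrfs1, and under the offsets for Uqcr11, Cox8a, Atp5mpl, Atp5g3, Cox6b1 and Atp5d. The sign turned negative under totals for Uqcrfs1 (−0.0674, not past the threshold) and Cox7a2l (−0.16, called lower). Under the offsets it turned negative without passing for Atp5g3 (−0.0285), Cox6b1 (−0.0668) and Atp5d (−0.0533). There Uqcrh (−0.11), Uqcrfs1 (−0.13), Atp5g2 (−0.17) and Cox7a2l (−0.30) turned negative and were called lower. The cause of these changes was not tested.

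Library totals left 21.6% of all genes tested higher and 46.7% lower. Of the lists, ATP synthase assembly (7 tested) then had 2 higher and 2 lower, and complex IV assembly (30) had 15 and 7. Complex III assembly (9) had 3 higher and 0 lower, and carriers (8) had 5 and 1. Regulators (15) had 3 higher and 9 lower, and import (22) had 18 and 1. Complex II (8) had 3 higher and 2 lower, and the mitochondrially encoded partners (6) had 0 and 4. The offsets left 32.4% of all genes higher and 30.1% lower. Complex III assembly then had 2 higher and 1 lower, complex IV assembly 11 and 6, and ATP synthase assembly 1 and 2. Carriers had 5 higher and 0 lower, import 18 and 0, and regulators 5 and 3. Complex II had 5 higher and 2 lower, and the partners 0 and 5. The cause was not tested.

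Libraries of the same number share only a number: their deviations from the group means correlated at −0.041, 0.011 and −0.003, and 0 ASPS-A1 libraries correlated best with the control of their own number. With the replicate block 38 members were higher, Atp5k being added (adjusted p = 5.03e-08), and the median was 0.60. Cox7a1 had at most 22 counts in any library, and the 4 untested members at most 1.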
